A study of Mus musculus with 38 samples.

Results

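The genes described here are 8 genes of cholesterol uptake, transport inside the cell and efflux: Lrp1, Scarb1, Npc1, Npc2, Stard4, Abca1, Abcg1 and Apoe. They were picked by name, as the array spells them, out of 29411 gene names on the array. All 8 passed the filter on dim probes and were among the 21861 genes tested. Brown adipose tissue came from C57BL/6J mice that were weaned at an age of 3 to 4 weeks and split at random into 5 groups of 30 animals. The LFC group received a low fat diet with 10% of its calories from fat, and the HFC group a high fat, high sucrose diet with 60% of its calories from fat. The HF5, HF20 and HF75 groups received the high fat diet together with 5, 20 or 75 µg of Kal-1, an ethano-botanical formulation whose active compounds the labels do not name. LFC and HFC had 10 arrays apiece and every dose had 6, taken at Days 6, 10 and 14 and Weeks 0, 3, 6, 9, 12, 15 and 18 for the 2 diets and at Weeks 3 to 18 for the doses. A group was sampled with a single array at each of its time points, which therefore stand in for replicates. The design text of the series speaks of 3 biological replicates, which the labels do not show. Whether an array held RNA of 1 animal or of several is not given in the sources used here.

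A cell takes in cholesterol with lipoprotein particles and also makes its own. Lrp1 is a large receptor that takes up remnant particles and many other ligands, and Scarb1 is the receptor that lets cholesteryl ester pass from HDL into the cell. Inside the late endosome and lysosome the soluble protein Npc2 hands free cholesterol to the membrane protein Npc1, and both are needed for it to leave that compartment. Stard4 is a soluble carrier that moves cholesterol between membranes, and its gene is a known target of SREBP-2, the factor that also drives the enzymes of cholesterol synthesis. Abca1 and Abcg1 are pumps that pass cholesterol out to apolipoprotein A-I and to HDL, and both genes are known targets of the sterol sensors LXR alpha and LXR beta. Apoe encodes apolipoprotein E, a ligand of Lrp1 that also carries cholesterol away from cells. Brown adipose tissue takes up lipoprotein lipid to fuel the production of heat.

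RefSeq sequences of the stretch before the transcription start (assembly GRCm38.p6) were found for Abca1, Npc2, Apoe and Lrp1. Those of Abca1, Npc2 and Lrp1 are shown because these genes were higher on the same class of arrays, described further on. Each is the 250 bases before the start, 5′ to 3′ on the strand of the gene, and capitals mark the E-box (CACGTG) and the GC box (GGGCGG, or CCGCCC where it lies on the other strand).
Abca1, chr4:53159896-53160145, minus strand: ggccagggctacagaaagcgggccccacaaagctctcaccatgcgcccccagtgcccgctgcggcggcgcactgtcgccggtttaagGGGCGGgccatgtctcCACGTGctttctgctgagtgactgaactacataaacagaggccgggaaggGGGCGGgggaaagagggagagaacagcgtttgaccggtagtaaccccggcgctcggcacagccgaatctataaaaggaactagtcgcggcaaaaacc
Npc2, chr12:84773113-84773362, minus strand: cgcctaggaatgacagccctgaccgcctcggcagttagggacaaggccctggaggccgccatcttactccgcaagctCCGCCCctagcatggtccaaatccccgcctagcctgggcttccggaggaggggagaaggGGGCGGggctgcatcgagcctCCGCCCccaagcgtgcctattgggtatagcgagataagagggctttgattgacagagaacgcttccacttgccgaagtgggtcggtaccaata
Lrp1, chr10:127621149-127621398, minus strand: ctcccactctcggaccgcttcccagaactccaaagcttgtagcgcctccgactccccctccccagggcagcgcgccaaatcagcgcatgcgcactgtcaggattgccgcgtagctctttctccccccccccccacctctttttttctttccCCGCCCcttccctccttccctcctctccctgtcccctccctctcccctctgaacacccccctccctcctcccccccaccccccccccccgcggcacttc
The Abca1 stretch held 1 E-box, which began 147 bases before the start, and 2 GC boxes, which began 163 and 97 bases before it. The Npc2 stretch held 3 GC boxes that began 173, 114 and 93 bases before the start, and the Lrp1 stretch held 1 at 99 bases. An E-box was in 7.15% and a GC box in 35.7% of all 32851 promoter windows of the table, both strands searched. None of the windows of these 4 genes held the sterol regulatory element TCACNCCAC (1.24% of all windows), the core motif of lysosome genes TCACGTGA (0.974%; an E-box lies inside it) or a direct repeat of AGGTCA with 4 bases between the copies, AGGTTA being allowed for 1 copy (0.0335%). The search allowed no other letters, so a direct repeat with other letters in its copies would have been missed. Its absence here does not show that a window lacks a site for LXR. These matches describe the letters of the windows and are not measured binding sites.

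The level of each gene was read by 1 probe of the array, the one with the highest mean. The probe of Apoe is shown because Apoe was the gene whose spot reached the limit of the scanner.
Apoe probe, 60 bases, lower case throughout: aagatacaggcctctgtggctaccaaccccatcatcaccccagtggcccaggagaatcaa
The position of the probes within their transcripts was not determined here. The deposited annotation placed Abca1 on chromosome 4, Scarb1 on 5, Apoe on 7, Lrp1 on 10, Npc2 on 12 and Abcg1 on 17.

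Values are log2 of the processed spot signal minus the 75th percentile of the same array, so 0 is a signal equal to that percentile and a difference of 1 is 2-fold. Each gene has its own probe, so levels are compared between arrays and not between genes. The spots of Stard4, Abca1, Abcg1, Npc2, Scarb1, Apoe and Lrp1 were well above background on 38 of 38 arrays. The Npc1 spot was well above background on 31 arrays, and on the other 7, all of Weeks 9 to 18, its values are less certain. Apoe was saturated on 5 arrays (Week 3 of HFC, HF20 and HF75, Week 6 of HF20 and Week 9 of LFC). The HFC array of Day 10 had outlier flags on the spots of Npc2 and Scarb1, so these genes have 9 HFC values. The 75th percentile of an array ran from 35.1 to 1209 intensity units. A boundary of 600 units, chosen after the arrays were seen, left 11 bright arrays (LFC Weeks 0, 3, 9 and 12, HFC Day 10 and Week 3, HF20 Weeks 3, 6, 12 and 15, and HF75 Week 3) and 27 dim arrays. Defining markers of brown adipocytes were present: Ucp1 and Cidea were well above background on 38 of 38 arrays. Of the markers of hepatocytes Cyp7a1 was well above background on 0 arrays, Ttr on 4, Apob on 8, Alb on 24 and Cyp2e1 on 37.

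The levels of all 8 genes differed between bright and dim arrays. In a fit over the 38 arrays with group and time point in the model, added after the data were seen, 8 of 8 genes passed the adjusted threshold of 0.05. Over all genes tested 59.4% passed, so the count of 8 of 8 is to be read against a background in which most genes moved. It includes Apoe and Npc1, whose differences are not exact: all 5 arrays with a saturated Apoe spot were bright, so that the Apoe level there can only be too low, and all 7 arrays with an Npc1 spot not well above background were dim. Lrp1, Npc2, Npc1 and Abca1 were higher on the bright arrays, and Stard4, Scarb1 and Abcg1 were lower, as was the measured value of Apoe.

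Lrp1 showed the pattern with no overlap. Its level ran from 1.41 to 3.25 with a median of 2.22 on the 11 bright arrays and from -0.89 to 1.22 with a median of 0.25 on the 27 dim arrays. The fitted difference was 1.96 (SE 0.23, adjusted p = 1.78e-07). Npc2, the soluble partner of Npc1, ran from 2.96 to 4.82 on 10 bright arrays and from 1.83 to 3.41 on the dim ones, a difference of 1.77 (SE 0.21, adjusted p = 2.8e-07). The HF75 array of Week 3 was the lowest bright array for Npc2, and the other 9 bright arrays lay above every dim one. Npc1 differed by 1.34 (SE 0.34, adjusted p = 0.00171) and Abca1 by 0.66 (SE 0.26, adjusted p = 0.0321), and for both genes the ranges of the classes overlapped.

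Stard4 went the other way. It ran from -1.18 to 1.6 with a median of -0.51 on the bright arrays and from 0.48 to 2.20 with a median of 1.5 on the dim arrays, a difference of -1.74 (SE 0.28, adjusted p = 1.33e-05). Scarb1 ran from 1.27 to 3.04 on bright arrays and from 2.50 to 4.35 on dim ones, a difference of -1.65 (SE 0.24, adjusted p = 4.66e-06). For Stard4 3 bright arrays reached into the dim range, and for Scarb1 1 did. The highest bright array of both genes was that of HF75 at Week 3, with Stard4 at 1.6 and Scarb1 at 3.04. Abcg1 differed by -1.02 (SE 0.27, adjusted p = 0.00221), with overlap. The measured values of Apoe differed by -0.45 (SE 0.18, adjusted p = 0.038), with 5 of the 11 bright arrays saturated, so neither this size nor its direction is settled.

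**Figure D1:**
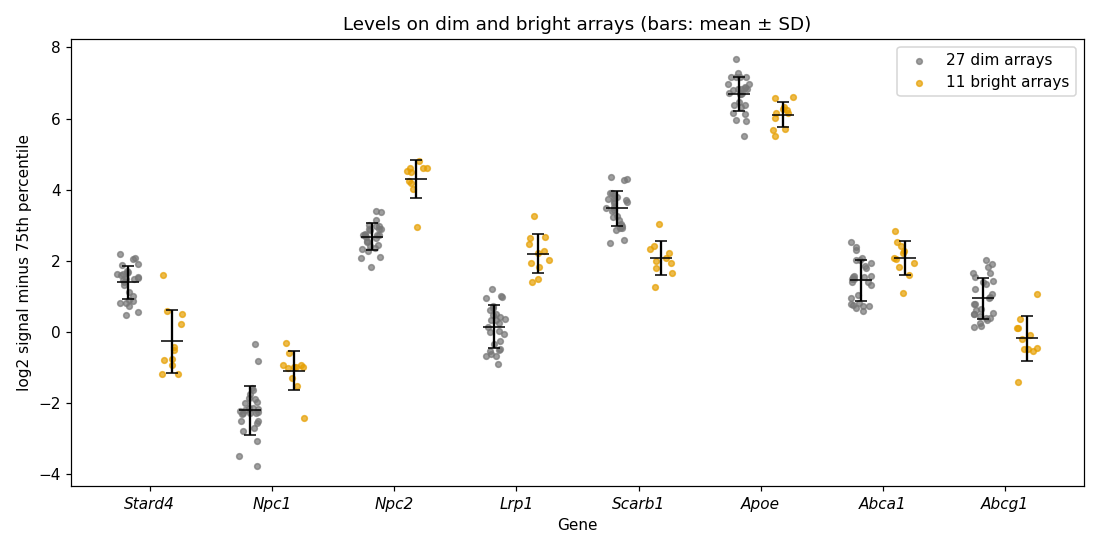
Level of each gene (log2 signal minus the 75th percentile of the array) on the 27 dim arrays in grey and the 11 bright arrays in orange, 1 point an array, with mean and SD as black bars. Lrp1 has no overlap between the classes, Npc2 and Npc1 sit higher on bright arrays, and Stard4, Scarb1 and Abcg1 sit lower.

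Markers of other cell types moved with the same split, as did 59.4% of all genes, and their part in the result was not tested. Of the vascular list (Pecam1, Cdh5, Kdr, Tek, Acta2 and Myh11) 6 of 6 genes were lower on bright arrays, and its mean level ran from 1.1 to 4.5 on bright and from 2.99 to 5.06 on dim arrays. The erythroid list was lower for 6 of 6 tested genes, at -1.68 to 0.28 on bright and 0.41 to 3.80 on dim arrays. Of 14 macrophage genes 7 were higher and 1 lower, at -1.54 to 1.11 against -1.33 to 0.55. Of 11 brown adipocyte genes 5 were higher and 1 lower, at -2.42 to 4.23 against 0.88 to 3.58, the lowest value being that of the HF75 array of Week 3, and of 7 white adipocyte genes 5 were higher, at -1.89 to 1.16 against -2.75 to -0.56. None of the 10 skeletal muscle genes passed, and their mean ran from -5.46 to 4.52 on bright and from -2.89 to 5.17 on dim arrays. Of 10 lymphocyte genes 3 were lower, at -5.55 to -3.11 against -5.14 to -1.29, and of 3 hepatocyte genes tested 1 was higher, at -5.40 to 0.47 against -4.93 to 0.19. The defining lymphocyte marker Cd79a was well above background on 7 arrays and the erythroid marker Rhag on 1. In bulk tissue fewer cells of a type and less RNA per cell cannot be told apart.

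Over Weeks 3 to 18, where all 5 groups were sampled, the groups were put in order by their mean for each gene. Of the 32 gaps between neighbours in that order 0 was larger than the larger SD of the pair, while the ends of the order lay further apart. Stard4 was highest in HF75 (1.43 ± 0.45, SD, n = 6) and lowest in HF20 (-0.17 ± 1.34), and Npc2 highest in HF20 (3.81 ± 0.84) and lowest in HF75 (2.43 ± 0.39). Lrp1 was highest in HF20 (1.61 ± 1.45, SD, n = 6) and lowest in HF75 (0.09 ± 1.09). HF20 stood at the top of the order for Npc1, Npc2 and Lrp1 and at the bottom for Stard4, Scarb1, Abcg1 and Apoe. Abca1 was highest in LFC (1.93 ± 0.35) and lowest in HFC (1.34 ± 0.53).

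**Figure D2:**
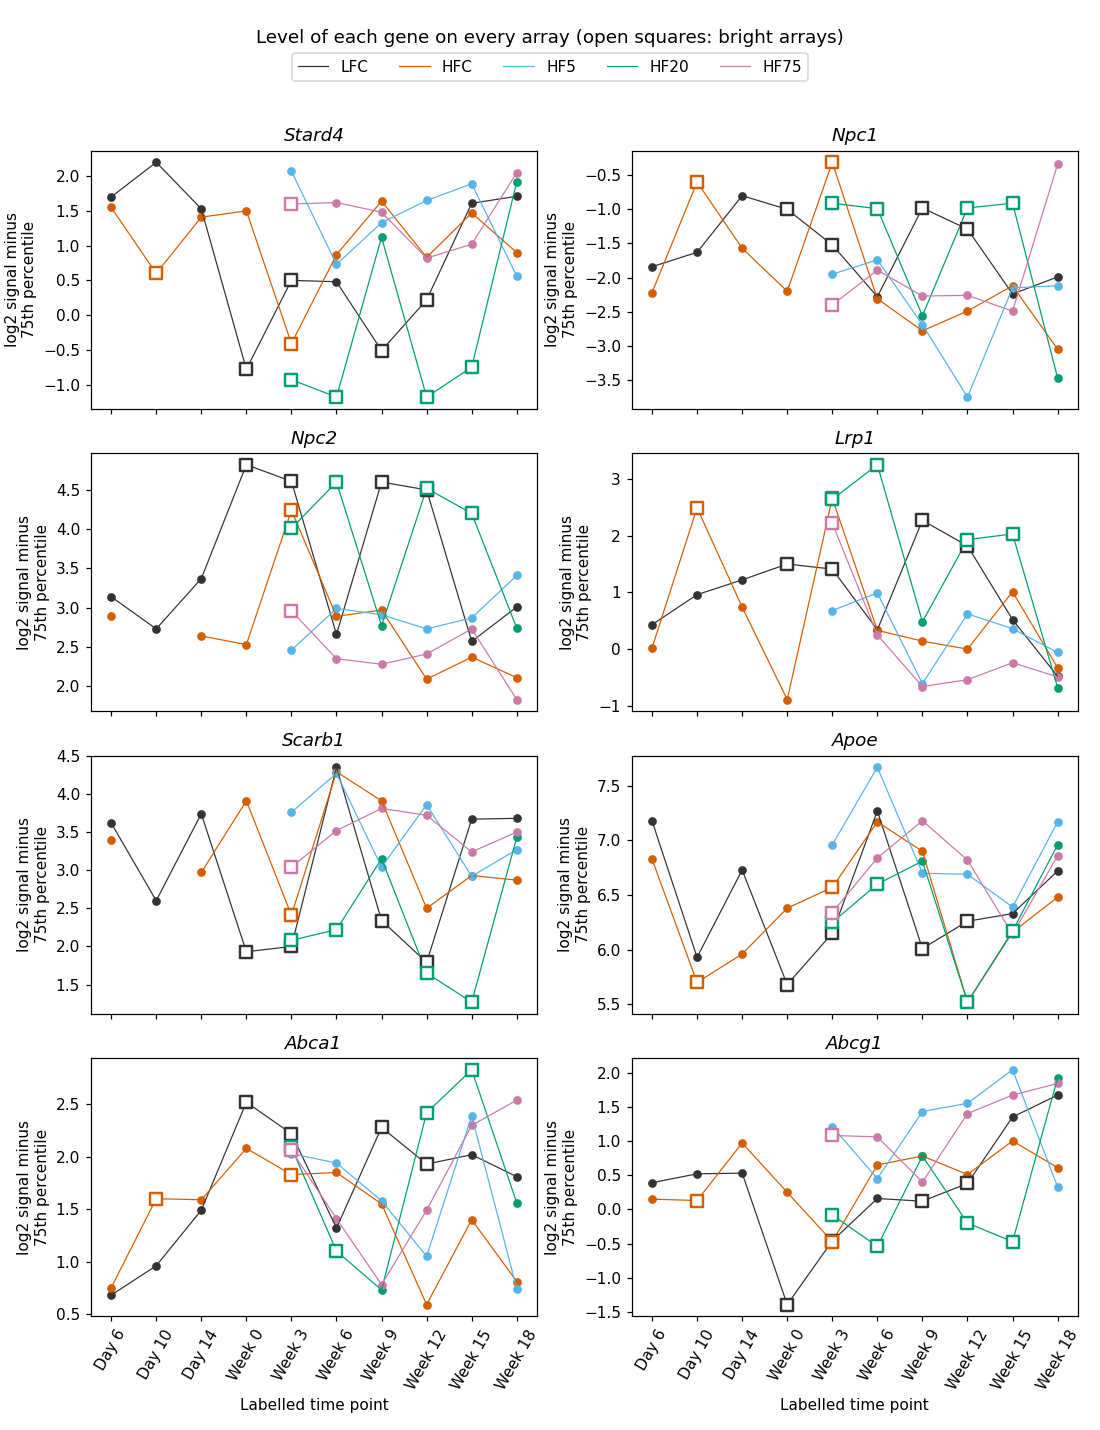
Level of each gene (log2 signal minus the 75th percentile of the array) on every array by labelled time point, with 1 line a group and open squares for bright arrays. Open squares sit high for Npc2 and Lrp1 and low for Stard4 and Scarb1 in LFC, HFC and HF20 alike, and the HF20 line leaves that side at Weeks 9 and 18, where its arrays were dim.

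By role, the receptors split as follows. Lrp1 ran from -0.61 to 0.99 with a median of 0.49 in HF5, from -0.68 to 3.25 with a median of 1.98 in HF20 and from -0.66 to 2.22 with a median of -0.36 in HF75. The 4 bright HF20 arrays held 2.64, 3.25, 1.93 and 2.03, above every HF5 array, and the 2 dim ones held 0.48 and -0.68. Scarb1 ran from 2.92 to 4.27 in HF5, from 1.27 to 3.43 in HF20 and from 3.04 to 3.81 in HF75. HF75 had the narrowest spread of Scarb1 (SD 0.29), and the HF20 values on bright arrays, 1.27 to 2.22, lay below all values of HF5 and HF75.

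Among the genes of the lysosome, Npc2 ran from 2.46 to 3.41 with a median of 2.89 in HF5, from 2.74 to 4.60 with a median of 4.10 in HF20 and from 1.83 to 2.96 with a median of 2.38 in HF75. The bright HF20 arrays of Weeks 3, 6, 12 and 15 held Npc2 at 4.01, 4.60, 4.52 and 4.2, and the dim arrays of Weeks 9 and 18 held it at 2.77 and 2.74. Over their 10 time points Npc1 ran from -2.28 to -0.80 in LFC and from -3.05 to -0.31 in HFC. Over Weeks 3 to 18 these ranges were -2.28 to -0.98 and -3.05 to -0.31. In the same weeks Npc1 ran from -3.75 to -1.74 in HF5, from -3.47 to -0.91 in HF20 and from -2.49 to -0.34 in HF75. Npc1 and Npc2 thus shared the high values of the bright HF20 arrays, while in HF75 the highest Npc1 value (Week 18) and the lowest Npc2 value (1.83) came from the same array.

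The genes of efflux overlapped widely between the groups. Over their 10 time points Abca1 ran from 0.68 to 2.52 in LFC and from 0.59 to 2.08 in HFC. Over Weeks 3 to 18 it ran from 1.32 to 2.28 in LFC and from 0.59 to 1.85 in HFC. In these weeks it ran from 0.74 to 2.39 in HF5, from 0.73 to 2.83 in HF20 and from 0.78 to 2.54 in HF75. Over the 10 time points Abcg1 ran from -1.39 to 1.67 in LFC and from -0.47 to 1.0 in HFC. Over Weeks 3 to 18 these ranges were -0.46 to 1.67 and -0.47 to 1.0. In the same weeks Abcg1 ran from 0.33 to 2.04 in HF5, from -0.54 to 1.92 in HF20 and from 0.40 to 1.84 in HF75. It was above 0 on all 12 arrays of HF5 and HF75. Apoe ran from 6.39 to 7.67 in HF5, from 5.52 to 6.96 in HF20 and from 6.14 to 7.18 in HF75, with the highest value of all on the HF5 array of Week 6.

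The first comparison asked which genes differed between the high fat and the low fat diet. With the 20 LFC and HFC arrays and the time point as a block, 0 of the 8 genes passed the adjusted threshold, as did 0% of the genes tested. At an unadjusted p under 0.05 there was 1 gene, Npc2, beside 6.99% of all genes. The median difference of the 8 genes was -0.19, against 0.06 over all genes.

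Npc2 ran from 2.57 to 4.82 with a median of 3.26 in LFC and from 2.09 to 4.24 with a median of 2.64 in the 9 HFC values, so the groups overlapped. It was lower in HFC at 8 of 9 time points, with a fitted difference of -0.95 (SE 0.31, p = 0.0115, adjusted p = 0.643). At the 6 time points where both arrays were of the same brightness class the mean difference was -0.37 (SD 0.40, lower at 5 of 6), and at the 3 others, where a bright LFC array was set against a dim HFC one, it was -2.11. Npc1 was lower in HFC at 7 of 10 time points, with a difference of -0.41 (SE 0.31, adjusted p = 0.66). Neither gene of the lysosomal pair passed the test.

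Lrp1 ran from -0.48 to 2.27 in LFC and from -0.89 to 2.66 in HFC. The fitted difference was -0.38 (SE 0.40, adjusted p = 0.73), and it was 0.01 (SE 0.20) with the brightness class in the model. Scarb1 ran from 1.79 to 4.35 in LFC and from 2.41 to 4.29 in HFC, with a difference of 0.23 (SE 0.33, adjusted p = 0.793). Its sign also depended on brightness: at the 6 time points of matched class Scarb1 was lower in HFC at 5 of 6, with a mean of -0.37 (SD 0.49). At Weeks 0, 9 and 12, with a bright LFC and a dim HFC array, Lrp1 differed by -2.39, -2.13 and -1.82. Scarb1 differed there by 1.98, 1.58 and 0.72. At Day 10, where the HFC array was the bright one, Lrp1 differed by 1.53 and Scarb1 had no value. At the time points of matched class the means were 0.17 for Lrp1 and -0.37 for Scarb1.

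Stard4 ran from -0.78 to 2.20 with a median of 1.02 in LFC and from -0.41 to 1.64 with a median of 1.16 in HFC. Its difference was 0.17 (SE 0.37, adjusted p = 0.866) over all time points and -0.29 (SD 0.49) at the 6 time points of matched class, where it was lower in HFC at 5. Stard4 had 2 further, dimmer probes on the array, well above background on 25 and 29 arrays, so their differences are less certain. Their mean HFC minus LFC differences were 0.88 (SD 1.78) and 0.83 (SD 1.98), against 0.17 (SD 1.25) for the probe used. The pumps and their partner moved little: Abca1 differed by -0.32 (SE 0.22, adjusted p = 0.651), Abcg1 by 0.13 (SE 0.24, adjusted p = 0.843) and Apoe by -0.06 (SE 0.21, adjusted p = 0.912). Apoe ran from 5.68 to 7.27 in LFC and from 5.52 to 7.17 in HFC, nearly the same range.

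**Figure D3:**
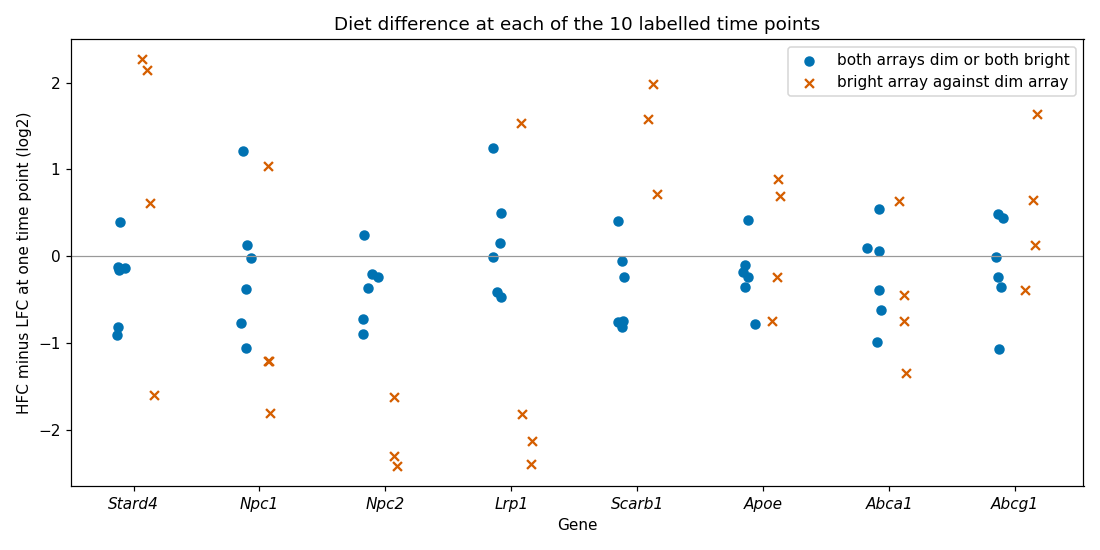
Difference HFC minus LFC (log2) of each gene at each labelled time point, with blue circles where both arrays were dim or both bright and orange crosses where 1 was bright and the other dim. The crosses of Npc2 lie at -1.62 to -2.41 and those of Scarb1 at 0.72 to 1.98, outside the range of the circles of these genes.

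Over Weeks 3 to 18 alone, in the fit of all 5 groups, 0 of the 8 genes passed for HFC against LFC, beside 0.00915% of all genes. Npc2 (-0.88, SE 0.41, p = 0.0426, adjusted p = 0.341) was again the 1 gene at an unadjusted p under 0.05, beside 14.4% of all genes. This fit shares 12 of its arrays with the comparison above and is no second sample. Abca1 was lower in HFC at 5 of 6 of these weeks, with a difference of -0.59 (SE 0.33, adjusted p = 0.387).

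Whether the diet difference changed over the course was tested as the product of diet and day. None of the 8 genes passed, as did 0% of all genes, and 1 gene had an unadjusted p under 0.05, beside 15.3% of all genes. That gene was Abca1, whose HFC minus LFC difference fell by 0.93 per 100 days (SE 0.40, p = 0.0411, adjusted p = 0.30). Its difference was 0.06 at Day 6, 0.64 at Day 10 and 0.10 at Day 14. In Weeks 12, 15 and 18 it was -1.34, -0.62 and -0.99. The Abca1 difference was above 0 at the 3 labelled days and below 0 at 6 of the 7 labelled weeks. The slope was not separated from 0 after adjustment. Abca1 was higher on bright arrays, and some of these pairs were of unlike brightness. At Day 10 only the HFC array was bright, and at Weeks 0, 9 and 12 (-0.44, -0.74 and -1.34) only the LFC array. Day 14 and Week 0 are both day 14 on the diet, so their unlike signs are no change over time. A fit that also held brightness gave a slope of -0.76 (SE 0.29, p = 0.0257, adjusted p = 0.148).

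The trend over days on both diets was passed by 0 of the 8 genes and by 1.63% of all genes. At an unadjusted p under 0.05 there were 2 of the 8, beside 21.3% of all genes. The efflux pump Abcg1 had a slope of 0.77 per 100 days (SE 0.29, p = 0.0147, adjusted p = 0.132). The rise was not steady: its LFC values were 0.39 at Day 6, -1.39 on the bright array of Week 0 and 1.67 at Week 18. Its HFC values at the same time points were 0.15, 0.25 and 0.61. Npc1 had a slope of -0.75 (SE 0.32, p = 0.0285, adjusted p = 0.179), with 2 of the 20 values, those of HFC at Weeks 9 and 18, not well above background. With normexp background correction the Npc1 slope turned to 0.34. The slopes of Abca1, Apoe, Scarb1 and Stard4 lay between -0.04 and 0.04.

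The next comparisons asked whether Kal-1 changed the genes on the high fat diet. The 3 doses were each set against the same 6 HFC arrays, so their differences are not independent. In HF5 0 of the 8 genes passed (0% of all genes) and 0 had an unadjusted p under 0.05, beside 5.45% of all genes. In HF75 the counts were likewise 0 (0% of all genes) and 0, beside 9.14%. For the mean of the 3 doses against HFC they were 0 (0% of all genes) and 0, beside 8.7%.

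In HF20 0 of the 8 genes passed (0% of all genes), and 3 had an unadjusted p under 0.05, beside 33.2% of all genes, so the share of 3 of 8 was close to that of the array. Npc2 differed from HFC by 1.03 (SE 0.41, p = 0.0195, adjusted p = 0.12), Stard4 by -1.05 (SE 0.48, p = 0.0372, adjusted p = 0.135) and Scarb1 by -0.85 (SE 0.39, p = 0.0402, adjusted p = 0.139). Lrp1 differed by 0.97 (SE 0.48, adjusted p = 0.156). With the brightness class in the model these differences were 0.15 (SE 0.25) for Npc2, -0.18 (SE 0.38) for Stard4, -0.08 (SE 0.28) for Scarb1 and -0.06 (SE 0.29) for Lrp1. HF20 held 4 bright arrays out of 6 and HFC 1 out of 6 in these weeks, and at the 3 weeks of matched class the mean Stard4 difference was -0.01 (SD 0.89).

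HF75 had the same brightness class as HFC at 6 of 6 weeks. Its array of Week 3 stood apart in other ways: the mean of the brown adipocyte list was -2.42 there and at least 0.88 on every other array, and the white adipocyte list stood at 1.16 against -2.15 to -0.56 on the other HF75 arrays. For HF75 against HFC the median difference of the brown adipocyte list was -1.43, against -0.03 over all genes, and its part in the differences below was not tested. Lrp1 was lower in HF75 than in HFC at 6 of 6 weeks, by 0.08 to 1.25, as were 2.52% of all genes. Its fitted difference was -0.55 (SE 0.48, adjusted p = 0.663), which did not pass, and it was -0.78 without the HF75 array of Week 3 (adjusted p = 0.821). That second fit kept the bright HFC array of Week 3, so its brightness classes were no longer matched. At Weeks 6, 9, 12, 15 and 18 Lrp1 differed by -0.08, -0.81, -0.54, -1.25 and -0.16. Abcg1 was higher at 5 of 6 weeks, by 0.73 on average (SD 0.68, fitted SE 0.38, adjusted p = 0.558). The largest of these differences, 1.56, was that of Week 3. Without the HF75 array of that week the fitted value was 0.65 (adjusted p = 0.821), again with the bright HFC array of Week 3 kept. In HF5 Abcg1 differed by 0.66 (SE 0.38, adjusted p = 0.822) and Apoe by 0.46 (SE 0.23, adjusted p = 0.822), with Apoe higher at 5 of 6 weeks. The Apoe difference turned to -0.07 under quantile normalization, and the HFC spot of Week 3 was saturated. Abca1 differed by 0.28, 0.45 and 0.43 in HF5, HF20 and HF75 (SE 0.33 each), so its mean was above HFC at every dose without any difference passing.

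**Figure D4:**
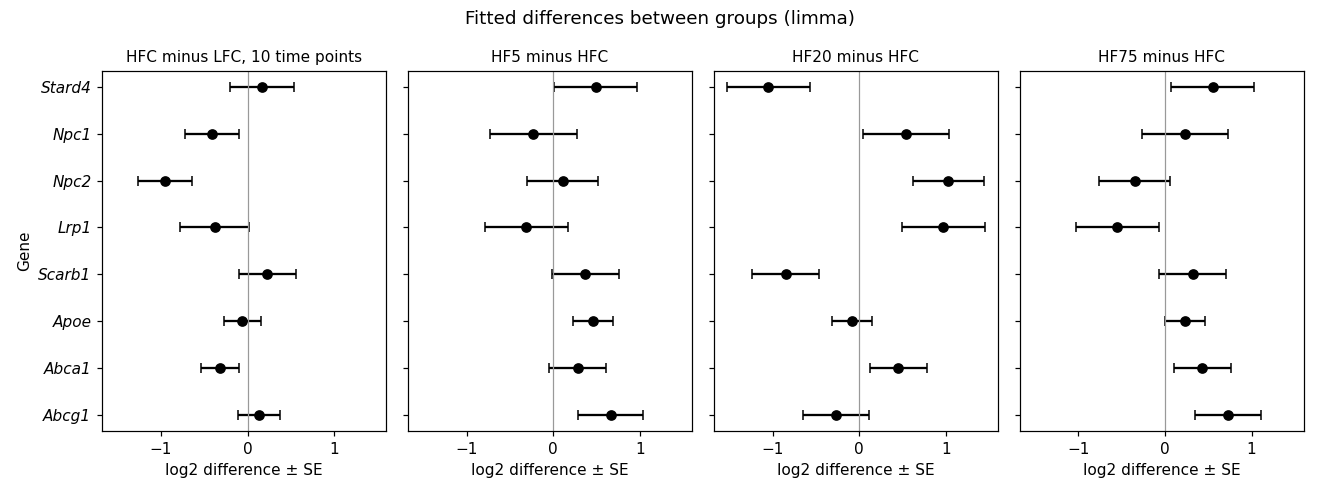
Fitted difference of each gene between groups (limma, log2) with its SE as the bar, in 4 panels for HFC against LFC over 10 time points and for HF5, HF20 and HF75 against HFC over Weeks 3 to 18. In the HF20 panel Npc2 and Lrp1 lie above 0 and Stard4 and Scarb1 below 0, and none of the 32 differences passed the adjusted threshold.

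The doses were then compared with each other by an F test, and here 1 of the 8 genes passed, beside 13.4% of all genes. At an unadjusted p under 0.05 there were 5 of the 8, beside 37.3% of all genes. The gene that passed was Stard4 (adjusted p = 0.0415), the cholesterol carrier under SREBP-2. Its level in HF20 was -0.93, -1.18, -1.18 and -0.75 on the bright arrays of Weeks 3, 6, 12 and 15 and was 1.12 and 1.92 on the dim arrays of Weeks 9 and 18. It ran from 0.56 to 2.07 with a median of 1.49 in HF5 and from 0.82 to 2.05 with a median of 1.54 in HF75. The 4 bright HF20 arrays lay below every HF5 and HF75 array, and the 2 dim ones lay inside both ranges. The 2 further Stard4 probes put HF75 below HFC (-0.38 and -0.36), where the probe used put it above (0.55). Against HFC they differed by -1.71 and -1.87 in HF20 (-1.05 for the probe used). In HF5 they differed by 0.33 and -0.23 (0.49 for the probe used).

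With brightness as a term of the fit the call of Stard4 was lost (adjusted p = 0.647), and the span between the highest and lowest dose difference went from 1.6 to 0.73. It was also lost when Week 3, 6, 12 or 15 was left out (adjusted p = 0.127, 0.174, 0.193 and 0.195) and without the HF75 array of Week 3 (0.0706), where the span stayed near its size (1.41, 1.47, 1.52, 1.57 and 1.54). Scarb1 (adjusted p = 0.0507), Npc2 (0.055), Lrp1 (0.0558) and Abcg1 (0.0882) missed the threshold, and Apoe (0.188), Npc1 (0.456) and Abca1 (0.909) lay further off. In the HF20 group the erythroid list stood at -1.15 to -0.52 on the 4 bright and at 3.18 and 3.36 on the 2 dim arrays, and the vascular list at 1.1 to 1.70 and at 3.85 and 4.36, so these markers moved with Stard4 and their part was not tested.

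A wider list of 60 genes of sterol handling, of which 55 were tested, was set beside the 8 genes. For HFC against LFC 0 passed, and 6 were lower and 0 higher at an unadjusted p under 0.05, beside 6.99% of all genes, with a median of -0.17 against 0.06 over all genes. The smallest p values belonged to Lrpap1, the chaperone of Lrp1 (-0.56, SE 0.19, p = 0.0114, adjusted p = 0.643), to Gramd1c, of a family that moves cholesterol from the plasma membrane (-0.90, SE 0.32), and to Apoc4, an apolipoprotein (-0.96, SE 0.37). Over Weeks 3 to 18 the 3 smallest included those of Lrpap1 (-0.63, SE 0.23) and Gramd1c (-1.22, SE 0.51). These fits share arrays, and no gene of the list passed in the first.

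For the product of diet and day the 3 smallest p values of the wider list included those of Nr1h4, the bile acid receptor FXR (3.11 per 100 days, SE 0.77, adjusted p = 0.101), and Npc1l1, a transporter of sterol uptake in the gut (1.89, SE 0.55), and 0 passed. For the trend over days 2 of 55 passed, beside 1.63% of all genes: Nr1h4 (2.49 per 100 days, SE 0.54, adjusted p = 0.0381) higher with time and Srebf2 (-1.17, SE 0.28, adjusted p = 0.0471) lower. Srebf2 encodes SREBP-2, and its slope stood beside a slope of 0.04 (SE 0.41) for Stard4. The calls for this trend depended on how brightness was treated. Over all 21861 genes the count went from 356 to 2 when the log2 75th percentile was added to the fit. It went to 1735 when the brightness class was added instead. Whether Nr1h4 and Srebf2 still passed in either fit is not reported here. Nor is the number of arrays on which Nr1h4, Npc1l1 and Srebf2 were well above background.

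Among the doses the wider list had 0 genes that passed against HFC. In HF20 14 of 55 were higher and 4 lower at an unadjusted p under 0.05, a share close to the 33.2% of all genes. The median of the list was 0.45 against -0.20 over all genes. The smallest p values were those of the lysosomal membrane protein gene Scarb2 (1.15, SE 0.39), of Srebf1 (1.73, SE 0.59) and of Nr1h3, which encodes LXR alpha (1.03, SE 0.37), each with an adjusted p of 0.118. In these weeks 4 of the 6 HF20 arrays were bright, against 1 of the 6 HFC arrays. With the brightness class in the model, 679 of the 21861 genes had an unadjusted p under 0.05 for HF20 against HFC. The smallest adjusted p over all genes was then 0.973. Abca7, a relative of Abca1, had the smallest p in HF5 (0.68, SE 0.29, adjusted p = 0.822), in HF75 (0.88, SE 0.29, adjusted p = 0.538) and for the mean of the doses (0.61, SE 0.24, adjusted p = 0.562). The next were Abcg4 (-1.11) and Rxra (0.69) in HF5, Stard5 (-1.13) and Soat1 (1.06) in HF75, and Lamp2 (0.42) and Mbtps1 (0.45) for the mean of the doses. Between the doses 8 of 55 passed, a share close to the 13.4% of all genes, and with the brightness class in the model 0 of the 21861 genes tested did. The 8 were led by Mylip, which encodes a ubiquitin ligase (0.81, -1.25 and 0.91 against HFC in HF5, HF20 and HF75), Stard5, a relative of Stard4 (-0.25, 0.75 and -1.13), and Mbtps2, a protease that releases SREBPs (-0.06, -1.12 and 0.78). The fitted differences of Stard5 and Stard4 were of opposite sign in both HF20 and HF75. Bright and dim arrays differed for 35 of the 55 genes, 25 higher and 10 lower on the bright ones, a share close to the 59.4% of all genes.

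The 20 tested enzymes of sterol synthesis, like Stard4, are known targets of SREBP-2. For HFC against LFC 0 of the 20 passed, as did 0% of all genes. At an unadjusted p under 0.05, 13 were lower and 0 higher, beside 6.99% of all genes. Their median difference was -1.03, against 0.06 over all genes. Their mean level was lower in HFC at 9 of 10 time points and at 6 of the 6 time points of matched brightness class, where the average was -0.54. The Week 3 pair stood at -1.72, and the other matched pairs ran from -0.48 to -0.04. Stard4 was lower at 5 of the same 6 time points, and so were Npc2, Scarb1 and Apoe, each at 5 of the 6. The mean level of the enzymes and that of Stard4 had a Pearson correlation of 0.164 over the 27 dim arrays and of -0.337 over the 11 bright ones, given as a description. On the bright arrays 16 of the 20 enzymes were higher and 1 lower, beside 59.4% of all genes that passed in either direction. The difference of Stard4 was -1.74. At Week 0 the enzymes differed between HFC and LFC by -2.32 and Stard4 by 2.27, where the LFC array alone was bright.

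The likeness of the 8 genes to other genes was measured by Pearson's r over the 27 dim arrays after a linear fit on the log2 75th percentile, as a description of arrays that share scaling. Of the pairs among the 8 genes Scarb1 and Apoe were most alike (r = 0.825) and Abca1 and Lrp1 least (r = -0.285). The names most like each gene were Tnfsf13 (0.879) and Hdac3 (0.87) for Scarb1, Vrk3 (0.886) and Maf1 (0.869) for Apoe, and C1qtnf5 (0.859) and Chpf (0.847) for Lrp1. For the lysosomal pair they were Cpsf3 (0.869) and D10Wsu52e (0.853) for Npc2 and Zfp810 (0.719) and Fam135a (0.718) for Npc1. Stard4 was most like D430007A19Rik (0.816) and BC030336 (0.815), Abca1 most like Pros1 (0.846) and Pcmtd2 (0.83), and Abcg1 most like Synm (0.83) and Gm11448 (0.813). Over the bright arrays r stayed above 0.7 for D430007A19Rik with Stard4 (0.901), D10Wsu52e with Npc2 (0.915), Cpsf3 with Npc2 (0.788) and Tnfsf13 with Scarb1 (0.829). The other 12 pairs of 1 of the 8 genes with a name most like it lay between -0.484 and 0.64 there.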

How the data were processed

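Total RNA of brown adipose tissue was labelled with Cy3 (Quick-Amp) and hybridised to 38 one-colour Agilent arrays on 32 slides, scanned on 12 days. The deposited scanner files hold spot intensity values from Feature Extraction (10.5.1.1 in the file headers, 9.1 in the submitters' processing notes), which that software had corrected for background and trends across the slide, with no scaling from array to array. A further deposited table gives log2 ratios of the authors, made in GeneSpring with the matching LFC array as the reference. Its 4 Week 15 columns correlated with the scanner files at -0.0032 to 0.0018, the other 24 at 0.981 to 0.998, so the table without Week 15 was only an alternative.

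Groups, times and doses came from the labels. Days on the diet were 14 plus 7 per labelled week. From the processed signal log2 was taken and the 75th percentile of each array subtracted. Outlier spots were left out, each gene name was read by its brightest probe on average, and the 21861 names well above background on at least 6 arrays were tested with limma 3.58.1 in R 4.3.3 (lmFit and eBayes, two-sided, Benjamini-Hochberg over all genes tested, threshold 0.05) with the time point as a block, except for the trend over days, where the diet alone was in the model. Every p value comes from limma. With the time point as a block, p values measure how far the differences between groups vary from time point to time point. For the trend over days they measure the spread of arrays about the fitted line. The number of arrays and the signal over background limit the precision. The code was tested on simulated data.

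The 8 genes, the lists and the rules were chosen with earlier results of these data known. All 8 genes are named, with the 3 smallest p values of the wider list in each comparison and the 2 names most like each gene, except for some that are not reported here. Figures and summaries used Python 3.11.15 with numpy 2.4.6, pandas 2.3.3 and matplotlib 3.10.9. The number of unmapped sample columns was 0.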

Additional observations from a re-analysis of the deposited data

Results flagged for a closer look

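In 4 of the 40 sets of values of 1 gene in 1 group an end value stood far from its neighbour for the size of the set (Dixon's criterion, which chance meets in about 1 of 20 sets). Stard4 in HFC was -0.41 at Week 3 and Npc2 in HFC was 4.24 at Week 3, both on a bright array among mostly dim ones. Lrp1 in HF75 was 2.22 at Week 3, on the 1 bright array of that group. Npc1 in HF75 was -0.34 at Week 18, on a dim array. Stard4 differed among the 3 doses in the F test (limma, adjusted p = 0.0415), with the bright HF20 arrays of Weeks 3, 6, 12 and 15 below every array of the other doses.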

How the results depend on the processing

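The counts of the 8 genes called were recomputed under 20 to 28 alternatives per comparison. They stayed at 0 under all alternatives run for HFC against LFC over all time points and over Weeks 3 to 18, the product of diet and day, HF5, HF75 and the mean of the doses. Array weights gave 3 genes for HF20 (Npc2, Scarb1 and Stard4) and 1 for the trend over days (Abcg1) in place of 0. Between the doses the count was 1 and went to 0 with normexp, without the filter on dim probes, with brightness in the model as a class or as the log2 75th percentile, without the HF75 array of Week 3 (added after the data were seen) and with no replicate block. It went to 2 with the mean over all probes and with the scan day as the block, to 4 with probes well above background on every array and with the floor, and to 5 with the slide as a random block and with array weights. Leaving out each time point in turn gave 0 to 5. Over all genes the dose count of 2920 became 0 with the class of brightness included, 1228 without the block and 6457 with the slide as a random block. Quantile normalization moved the median difference of all genes from -0.20 to 0.04 for HF20 and from 0.08 to -0.12 for HFC against LFC over Weeks 3 to 18, and kept the means of the 8 genes in each group within 1 SD. Of the single values that were not called, 20.2% of those for the trend over days, 16.9% for HFC against LFC over Weeks 3 to 18, 15% for the product of diet and day, 14.4% for the mean of the doses, 10.8% for HFC against LFC over all time points, 7.65% for HF5 and for HF20 and 3.28% for HF75 changed sign under an alternative. The Apoe difference of HF75 turned from 0.23 to -0.44 with normexp. The methods' t-test gave 0 called genes of the 8 in the comparisons it could be run for. Apart from what the brightness values show, the causes were not tested.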
